A study of Mus musculus with 12 samples.

Results

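Insulin receptor signalling was followed through 9 genes in adipocytes grown from the fat of mice with different forms of PPARγ. They were the receptors Insr and Igf1r, the substrates Irs1 and Irs2, the phosphoinositide 3-kinase subunits Pik3r1 and Pik3ca, the kinases Akt1 and Akt2, and the adaptor Grb14. The genes were taken by their symbols, but were chosen with earlier results of these data known. Each of the 9 was found once among the 55573 genes counted. All 9 also passed the filter on low counts, which kept 15117 genes.

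The cells came from the stromal vascular fraction (SVF), what is left of digested inguinal fat once its mature fat cells are gone. The donors were C57BL/6 mice with 2 copies of the wild-type Pparg allele (WT), of T166A (TA) or of T166D (TD). T166A puts alanine at residue 166 and cannot be phosphorylated there, while the aspartate of T166D stands in for the phosphorylated threonine. Both alleles were knocked in with CRISPR-Cas9 and are carried by every cell of the mouse, so precursors and fat cells are mutant alike. The methods name WT littermates as controls, but not which litters gave the WT cells sequenced here. The sources used here give neither the age of the mice nor whether the 4 libraries of a genotype came from separate animals, so the p-values measure the spread between these libraries, which may be technical. All 3 genotypes were differentiated in the same way, with IBMX, dexamethasone and indomethacin for 4 days, and were harvested on day 8. Both media contained 850 nM insulin and 1 nM triiodothyronine (T3), so every library is from cells held in insulin, and no library without insulin was compared.

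Insulin and insulin-like growth factors bind receptor tyrosine kinases at the cell surface, which phosphorylate docking proteins of the IRS family. These recruit phosphoinositide 3-kinase (PI3K), whose lipid product brings the AKT kinases to the membrane. In fat cells the pathway moves glucose transporters to the surface, promotes lipid synthesis and restrains lipolysis. PPARγ, the nuclear receptor that carries the mutations, is required for adipocyte differentiation and is the target of the insulin-sensitizing thiazolidinediones. The RNA levels of this machinery were compared between TD, TA and WT cells.

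Library depth ran from 16553324 to 20324286 counted reads, with the WT libraries at 18823619 or more and those of TA and TD at 18357864 or fewer. Reads on mitochondrial genes made up 4.92% to 5.88% of the WT libraries, 2.74% to 4.50% of TA and 2.86% to 3.57% of TD. The 12 adipocyte markers were expressed in each genotype, and their summed level was 22893 to 25747 CPM (counts scaled to 1000000 per TMM-normalized library) in WT, 21844 to 27878 in TA and 16074 to 18341 in TD. Of these markers 11 of 12 were lower in TD than in WT, Cidec, a lipid droplet protein, the most (−0.97), and 3 of 12 were higher in TA. Markers of preadipocytes and fibroblasts summed to 10210 to 13558 CPM in WT, 11491 to 20603 in TA and 17741 to 25925 in TD, and 9 of the 11 tested were higher in TD than in WT and 7 in TA, Cd34 the most in TD (1.61). Endothelial markers summed to 50.5 to 85.0 CPM in WT, 77.5 to 123 in TA and 136 to 177 in TD, macrophage markers to 280 to 821, 139 to 601 and 637 to 881, and skeletal muscle markers to 6.34 to 11.5, 14.8 to 48.6 and 15.4 to 176. In TD against WT 8 of 8 endothelial, 1 of 10 macrophage and 9 of 9 tested muscle markers were higher, and in TA against WT 5, 0 and 5. Fewer adipocytes in a culture and less RNA per adipocyte cannot be told apart in bulk RNA, and the part of these markers in the results on the insulin pathway was not tested. Pparg itself averaged 354 ± 19.9 CPM in WT, 374 ± 46.1 in TA and 237 ± 24.2 in TD (SD, n = 4), and was lower in TD than in WT (log2 fold change −0.58, SE 0.09, adjusted p = 0.000429 by edgeR's quasi-likelihood test).

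PPARγ binds DNA with the retinoid X receptor at pairs of nuclear receptor half-sites, so the 250 bases before each RefSeq start of these genes were searched for AGGTCA and for other motifs. Of the 9 genes 8 matched the RefSeq table (build GRCm38.p6), with 13 starts. Windows are shown for 4 of the genes whose levels in TD differed from WT, with matches to the motifs searched in capitals on either strand. For Pik3r1, with 2 starts, and Akt2, with 4 starts, only 1 window is shown, and their other windows held no match.
Igf1r, chr7:67952007-67952256, plus strand: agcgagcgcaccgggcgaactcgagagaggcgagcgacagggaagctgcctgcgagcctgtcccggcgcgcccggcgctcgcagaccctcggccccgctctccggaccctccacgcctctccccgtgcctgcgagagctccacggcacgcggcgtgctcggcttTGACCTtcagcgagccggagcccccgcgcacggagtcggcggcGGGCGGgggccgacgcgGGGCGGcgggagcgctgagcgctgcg
Irs2, chr8:11008930-11009179, minus strand: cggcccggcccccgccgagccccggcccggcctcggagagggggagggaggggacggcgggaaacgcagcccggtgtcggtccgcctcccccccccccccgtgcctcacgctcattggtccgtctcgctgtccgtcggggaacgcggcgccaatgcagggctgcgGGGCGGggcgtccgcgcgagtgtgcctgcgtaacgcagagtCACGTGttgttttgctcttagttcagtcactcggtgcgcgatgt
Pik3r1, chr13:101768218-101768467, minus strand: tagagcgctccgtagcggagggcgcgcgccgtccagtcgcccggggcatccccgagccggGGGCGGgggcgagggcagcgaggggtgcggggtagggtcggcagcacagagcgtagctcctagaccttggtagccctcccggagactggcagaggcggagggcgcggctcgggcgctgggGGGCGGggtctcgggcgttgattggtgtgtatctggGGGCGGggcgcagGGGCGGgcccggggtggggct
Akt2, chr7:27591302-27591551, plus strand: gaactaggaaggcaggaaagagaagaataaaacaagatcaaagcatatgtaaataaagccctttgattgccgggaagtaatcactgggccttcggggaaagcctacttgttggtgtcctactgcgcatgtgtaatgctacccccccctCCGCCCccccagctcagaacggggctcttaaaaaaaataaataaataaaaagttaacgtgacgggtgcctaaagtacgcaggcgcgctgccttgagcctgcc
Each of these windows lies outside the span of its own gene in the annotation used (GENCODE M21). The Igf1r window held an AGGTCA half-site, read as TGACCT on the strand shown, 86 bases before the start. Half-sites were present in 2 of the 13 windows (15.4%), the other being a start of Akt1, against 14% of 32851 promoter windows of the same length. The PPAR response element DR1, with 2 such half-sites in tandem 1 base apart, was searched without any mismatch. It was in none of the 13 windows and in only 0.0335% of all windows. Its absence from 13 windows therefore does not show that these genes lack such an element. The E-box CACGTG was in the windows of Irs1 and Irs2 (15.4% of the 13 windows, 6.02% of all). Each of the 8 genes had at least 1 start with the GC-box GGGCGG, which was in 61.5% of the 13 windows and 32.7% of all, with overlapping matches counted. The FOXO motif GTAAACA was in 1 of the 13 windows, of Akt1 (3.17% of all), and the SREBP motif TCACNCCAC in none of them (1.05% of all). A match is a run of letters and not a site of binding.

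The genes differed widely in level within a genotype. On the scale of TPM, which divides the counts by the length of the gene's exons and scales each library to the same sum, Pik3r1 was the most abundant of the 9 in WT (166 ± 8.52 TPM, mean ± SD, n = 4). This gene encodes the regulatory subunit that holds PI3K inactive and ties it to IRS proteins. Akt1 (99.1 ± 5.39 TPM) and Akt2 (96.0 ± 3.53 TPM) came next, and their WT libraries overlapped. Insr followed at 45.8 ± 6.02 TPM, clear of Irs2 at 30.1 ± 3.61. The libraries of Irs2 overlapped with those of Pik3ca (24.6 ± 2.61 TPM), the catalytic subunit of PI3K. Irs1 stood at 12.7 ± 2.10 TPM, a level that is uncertain because 2822 of its 9144 exon bases are shared with another gene on the other strand, Gm9747. Below it, Grb14 (5.97 ± 1.47 TPM) and Igf1r (4.90 ± 0.827 TPM) were lowest and overlapped. By exon length the receptor for insulin was thus the more abundant RNA of the receptor pair, and Irs2 of the substrate pair.

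Except for 2 neighbouring pairs, the ranking by mean was the same in the 3 genotypes. In TA the mean of Akt2 (110 ± 7.26 TPM) lay above that of Akt1 (103 ± 9.20 TPM), with overlapping libraries. In TD, Akt1 ranged from 108 to 115 TPM and Akt2 from 83.2 to 89.4 TPM, so the libraries of these kinases did not overlap. Igf1r and Grb14 also changed places between genotypes, with overlapping libraries in each of them. Lengths of the longest transcript kept Akt1 and Akt2 apart in TD (131 to 139 and 104 to 111 TPM) and placed Grb14 above Igf1r in each genotype and above Irs1 in WT and TD.

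**Figure D1:**
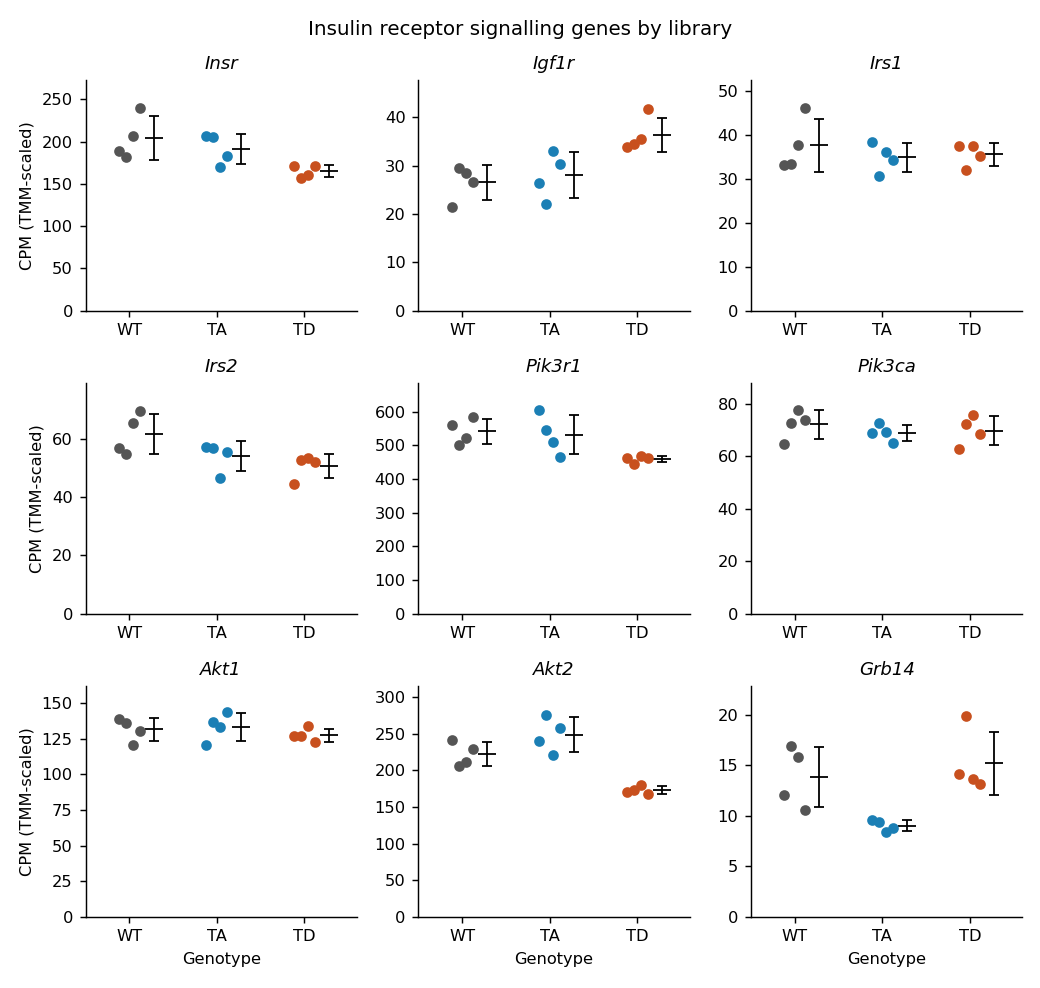
Level of the 9 genes in each library, in CPM of the TMM-normalized library on a linear axis from 0, for WT, TA and TD. Points are the 4 libraries of a genotype and the bar beside them is the mean with its SD. The 4 TD points of Akt2 (168 to 181 CPM) lie below all WT points (206 to 242 CPM), and the 4 TA points of Grb14 (8.40 to 9.53 CPM) lie below all others.

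The comparison of TD with WT called 5 of the 9 genes at an adjusted p under 0.05. Igf1r rose, and Insr, Irs2, Pik3r1 and Akt2 fell. Among all genes tested, 29.2% were called in this comparison, 15.1% higher and 14.2% lower. The median log2 fold change of the 9 genes was −0.08, against 0.01 for all genes tested. The same 5 genes were those with no overlap between WT and TD libraries, a pattern shown by 32.2% of all genes, 15.8% with TD above and 16.4% with TD below. With library totals in place of TMM normalization 3 genes were called, 1 higher and 2 lower, and with TPM and limma 2 genes, 1 higher and 1 lower. TPM, which was not scaled further, moved the median log2 fold change of all genes in TD against WT to 0.18. Relative to that median the TPM values were −0.34 for Akt2, −0.28 for Insr, −0.26 for Irs2, −0.21 for Pik3r1 and 0.39 for Igf1r. Alongside, the median change of the adipocyte markers was −0.44 and that of the preadipocyte and fibroblast markers 0.95, and their part in these results was not tested.

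Akt2 encodes the AKT isoform most closely tied to insulin-stimulated glucose uptake in fat. Its level in WT was 242, 206, 212 and 229 CPM in replicates 1 to 4, and in TA 240, 276, 222 and 259 CPM. In TD it was 170, 174, 181 and 168 CPM. All TD libraries were below all WT and TA libraries, and TA overlapped with WT. Akt2 fell by 22.1% in TD against WT (log2 fold change −0.36, SE 0.08, adjusted p = 0.00282, edgeR). Against TA it fell by 30.5% (log2 fold change −0.52, adjusted p = 0.000342, edgeR). Both calls were kept in 21 of 21 alternatives, and without any 1 library the change against WT stayed between −0.40 and −0.31. On the TPM scale the change against WT was −0.16 (adjusted p = 0.0447, limma).

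Igf1r, the receptor for insulin-like growth factors, went the other way. WT libraries held 21.5, 29.5, 28.6 and 26.6 CPM, and TA libraries 26.5, 22.1, 33.1 and 30.5 CPM. TD libraries held 34.0, 34.5, 35.5 and 41.7 CPM. Each TD library was above each WT and TA library, and replicate 4 of TD was the highest. Igf1r was 1.37-fold higher in TD than in WT (log2 fold change 0.46, SE 0.12, adjusted p = 0.0113, edgeR), a call kept in 21 of 21 alternatives. It was 1.30-fold higher in TD than in TA (log2 fold change 0.38, adjusted p = 0.0473, edgeR), and this call was kept in 12 of 21 alternatives. Leaving out TA replicate 2 brought the latter to 0.28 (adjusted p = 0.149), and leaving out TD replicate 4 to 0.30 (adjusted p = 0.153). It was also lost without WT replicates 3 or 4, TA replicate 1 or TD replicates 1, 2 or 3 (adjusted p from 0.0526 to 0.110), and when only TD and TA were fitted (adjusted p = 0.0546).

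Insr, the insulin receptor, was at 188, 181, 206 and 240 CPM in WT. It was at 207, 206, 170 and 183 CPM in TA, and at 171, 157, 160 and 171 CPM in TD. TD lay below WT in all libraries, while the lowest TA library fell within the range of TD. The fall in TD against WT was −0.31 on the log2 scale (SE 0.09, adjusted p = 0.0189, edgeR). It was called in 17 of 21 alternatives and was lost without WT replicate 4 (−0.22, adjusted p = 0.0749), without TD replicate 2 (adjusted p = 0.0554), without TD replicate 3 (adjusted p = 0.0541) and with TPM (−0.10, adjusted p = 0.387, limma). Between TD and TA the log2 difference was −0.21, with a 95% interval from −0.41 to −0.02 and an adjusted p of 0.118 (edgeR).

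Of the substrates, Irs2 passed the test in TD against WT and Irs1 did not, and their ratio overlapped between the 2 genotypes (exact permutation p = 0.0857). Irs2, a docking protein for the receptor, was at 56.8, 54.9, 65.3 and 69.4 CPM in WT and at 57.2, 56.8, 46.4 and 55.4 CPM in TA. It was at 44.6, 52.7, 53.5 and 52.1 CPM in TD. TD did not overlap with WT, although the highest TD library was close to the lowest WT library. The change in TD was −0.28 (SE 0.09, adjusted p = 0.0335, edgeR) and was called in 14 of 21 alternatives. It was not called with library totals (−0.21, adjusted p = 0.0778), with TPM (−0.08, adjusted p = 0.543) or without WT replicate 3 (adjusted p = 0.0840), WT replicate 4 (0.115), TD replicate 1 (0.101), TD replicate 2 (0.0502) or TD replicate 4 (0.0592). Irs1, the other main docking protein, ranged from 33.2 to 46.1 CPM in WT, from 30.7 to 38.3 in TA and from 32.0 to 37.5 in TD. All groups overlapped, and the log2 difference between TD and WT was −0.08, with a 95% interval from −0.30 to 0.14 (adjusted p = 0.607, edgeR).

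Of the PI3K subunits, Pik3r1 passed the test in TD against WT and Pik3ca did not, and their ratio overlapped between these genotypes (exact permutation p = 0.143). Pik3r1 was at 561, 501, 522 and 584 CPM in WT and at 605, 546, 512 and 465 CPM in TA. It was at 463, 445, 468 and 463 CPM in TD, with an SD of 10.1 CPM against 37.7 in WT. All TD libraries were below all WT libraries. The change of −0.24 (SE 0.08, adjusted p = 0.0423, edgeR) was the nearest to the threshold of the 5, and it was called in 10 of 21 alternatives. Among the alternatives in which it was not called were library totals (−0.17, adjusted p = 0.104), TPM (−0.04, adjusted p = 0.707), no filter on low counts (adjusted p = 0.0632), and the loss of any 1 of WT replicates 1, 3 and 4 and the 4 TD libraries (adjusted p from 0.0505 to 0.121). Pik3ca ranged from 64.8 to 77.9 CPM in WT, from 65.0 to 72.6 in TA and from 62.8 to 75.8 in TD. Its log2 difference between TD and WT was −0.05, with a 95% interval from −0.21 to 0.11 (adjusted p = 0.667, edgeR).

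Akt1, the AKT isoform of growth and survival, overlapped between all genotypes. It ranged from 121 to 139 CPM in WT, from 120 to 144 in TA and from 123 to 134 in TD. The log2 difference between TD and WT was −0.05, with a 95% interval from −0.20 to 0.10 (adjusted p = 0.667, edgeR).

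**Figure D2:**
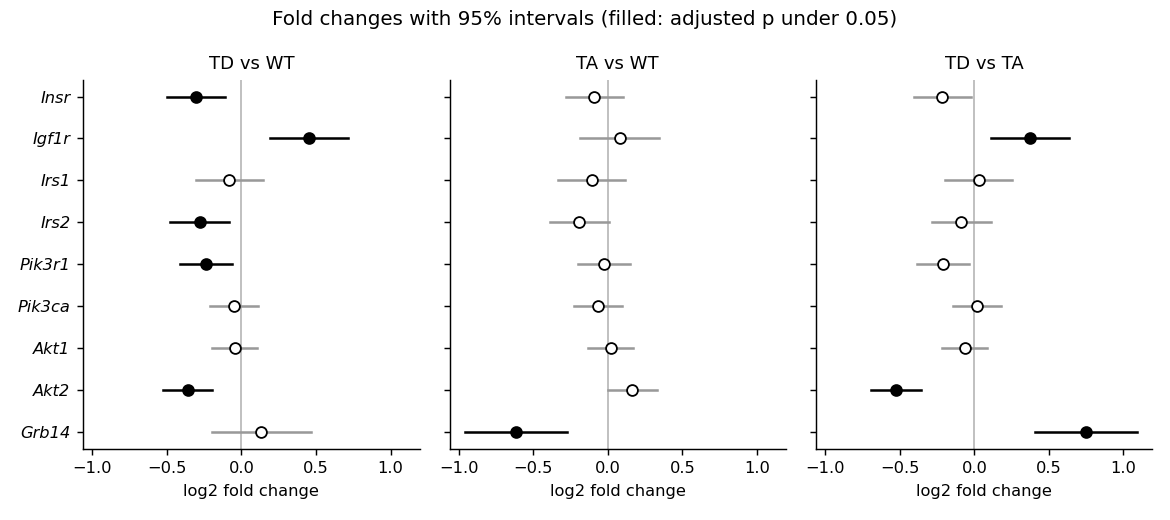
Log2 fold changes of the 9 genes in TD against WT, TA against WT and TD against TA from the edgeR fit to all 12 libraries. Points are the fitted values, lines their 95% intervals, and filled points have an adjusted p under 0.05. In TD against WT, Igf1r is the filled point to the right (0.46) and Akt2 the one farthest to the left (−0.36), while Grb14 is the one filled point in TA against WT (−0.62).

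The comparison of TA with WT called 1 of the 9 genes, and Grb14 was that gene. Among all genes tested 11.1% were called, 6.72% higher and 4.41% lower. Grb14 encodes an adaptor that binds the activated insulin receptor and inhibits its kinase. Its levels in WT were 12.04, 16.9, 15.9 and 10.6 CPM, in TA 9.53, 9.41, 8.40 and 8.78 CPM, and in TD 14.1, 19.8, 13.6 and 13.1 CPM. The TA libraries were close to each other and below every WT and TD library, and 5.85% of all genes had TA libraries below all WT libraries and 7.71% above, while the WT and TD libraries of Grb14 overlapped. It fell by 34.8% in TA against WT (log2 fold change −0.62, SE 0.16, adjusted p = 0.0204, edgeR). The call was kept in 18 of 21 alternatives and was lost without WT replicate 2 (−0.51, adjusted p = 0.0638), without WT replicate 3 (−0.55, adjusted p = 0.0611) and with TPM (−0.46, adjusted p = 0.0809, limma). In TA, 3 of 12 adipocyte markers and 7 of 11 preadipocyte and fibroblast markers were higher than in WT, and their part in the fall of Grb14 was not tested. TD against WT gave a log2 difference of 0.13 with a 95% interval from −0.20 to 0.46 (adjusted p = 0.566, edgeR).

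For the other 8 genes the difference between TA and WT did not pass the test. The values nearest to it were those of Akt2, at 0.16 with a 95% interval from −0.0009 to 0.33 (adjusted p = 0.201, edgeR), and Irs2, at −0.19 with an interval from −0.39 to 0.01 (adjusted p = 0.217, edgeR). On the TPM scale Akt2 was called higher in TA (0.20, adjusted p = 0.0473, limma). The interval of Insr ran from −0.28 to 0.10, that of Pik3r1 from −0.20 to 0.15 and that of Akt1 from −0.13 to 0.17. The median of the 9 genes was −0.07, against −0.01 for all genes tested.

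TD and TA were compared directly, and 3 of the 9 genes were called, against 16.7% of all genes tested (7.33% higher and 9.37% lower). Akt2 was lower in TD, and Igf1r and Grb14 were higher, each without overlap, as for 10.6% of all genes with TD below TA and 9.32% with TD above. Grb14 was 1.68-fold higher in TD than in TA (log2 fold change 0.75, SE 0.16, adjusted p = 0.00526, edgeR), which was called in 21 of 21 alternatives and lay between 0.59 and 0.81 when any 1 library was left out. The value without TD replicate 2, the library with the highest Grb14, was the lowest of these. Pik3r1 had a log2 difference of −0.21 with an adjusted p of 0.0957 (edgeR). The comparisons share libraries, so their calls are not independent of each other.

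**Figure D3:**
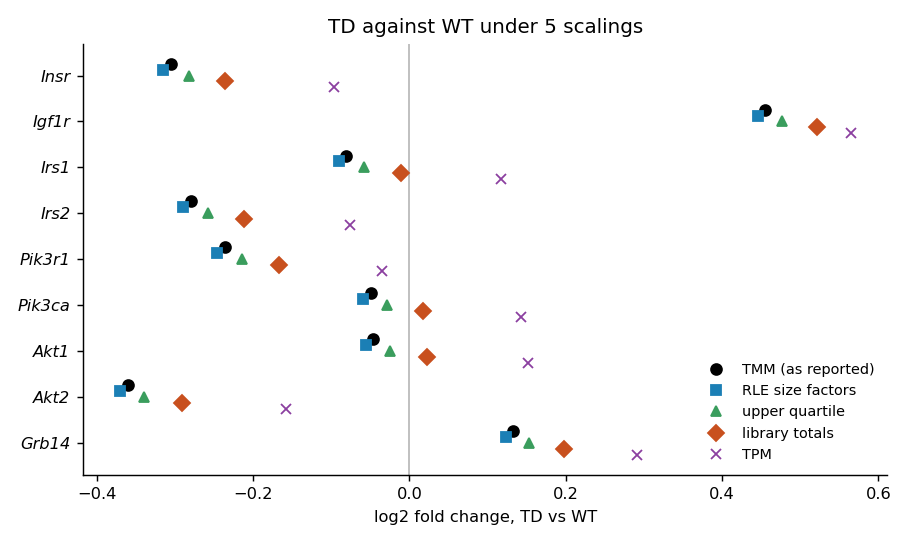
Log2 fold change of each gene in TD against WT under 5 scalings of the libraries (TMM as reported, RLE size factors, upper quartile, library totals, TPM with no further scaling). Each marker is the fitted value under 1 scaling, and the grey line is 0. Igf1r stays to the right (0.46 with TMM, 0.56 with TPM) and Akt2 to the left (−0.36 and −0.16), while Irs1, Pik3ca and Akt1 cross from below 0 with TMM to above 0 with TPM.

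Ratios of 2 genes in the same library do not depend on how libraries are scaled to each other, so 5 pairs were compared, 4 within a step of the pathway and 1 of the adaptor Grb14 with the receptor it inhibits. The CPM of Akt2 was 1.51 to 1.75 times that of Akt1 in WT, 1.67 to 2.02 times in TA and 1.34 to 1.37 times in TD. TD lay below both other genotypes in each library, and its spread was the smallest, with an SD of 0.01 on the log2 scale against 0.10 in WT and 0.13 in TA. The log2 ratio in TD was lower by −0.31 than in WT and by −0.46 than in TA (exact two-sided permutation test, p = 0.0286 for each). This is the smallest p that 4 against 4 libraries allow, and adjusted over the 15 tests it is 0.0857.

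The receptor pair gave a similar separation. Insr was 6.14 to 9.03 times Igf1r in WT, 5.14 to 9.32 times in TA and 4.11 to 5.04 times in TD, as ratios of CPM. The log2 ratio in TD differed by −0.76 from WT and by −0.60 from TA, with no overlap in either case (exact permutation p = 0.0286, adjusted 0.0857). Against WT this separation was fixed by the levels given above. Each TD library was below each WT library for Insr and above each for Igf1r, so this p adds nothing to those results. The ratio of Grb14 to Insr was higher in TD than in TA by 0.94 on the log2 scale with no overlap (exact permutation p = 0.0286, adjusted 0.0857). It overlapped between TA and WT (difference −0.50, exact permutation p = 0.143, adjusted 0.238). For Irs1 to Irs2 the difference between TD and WT was 0.21 (exact permutation p = 0.0857, adjusted 0.184), and for Pik3r1 to Pik3ca it was −0.18 (exact permutation p = 0.143, adjusted 0.238), with overlapping libraries. None of the 15 ratio tests passed after adjustment, and 5 of them had an unadjusted exact p under 0.05.

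**Figure D4:**
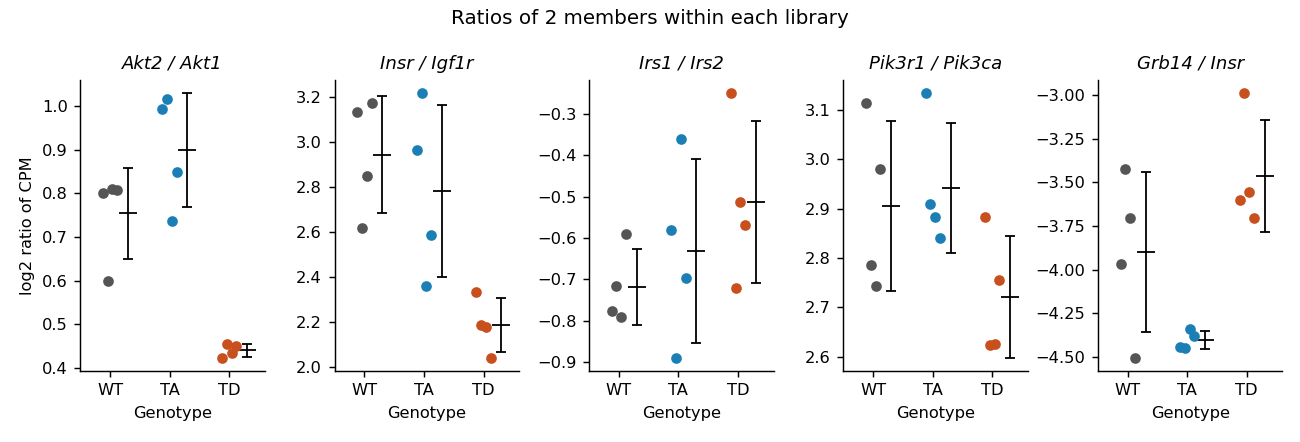
Log2 ratio of 2 genes within each library for 5 pairs, by genotype, on separate axes that do not start at 0. Points are the 4 libraries and the bar beside them is the mean with its SD. The 4 TD points of Akt2 to Akt1 (0.42 to 0.45) lie close together below those of WT (0.60 to 0.81) and TA (0.74 to 1.02), and the TD points of Insr to Igf1r (2.04 to 2.33) lie below those of WT (2.62 to 3.17).

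Around these 9 genes, 99 other genes of the pathway were listed in 5 groups by role, and 97 of them were tested. Irs4 had no counts and Insrr at most 12 counts in a library. In TD against WT 22.7% of the 97 were called, 8 higher and 14 lower, against 29.2% of all genes. In TA against WT 13.4% were called, 7 higher and 6 lower, against 11.1%, and in TD against TA 20.6%, 11 higher and 9 lower, against 16.7%. The split by direction depended on scaling: in TD against WT it was 14 higher and 7 lower with library totals, 11 and 10 without the filter on low counts, and 23 and 2 with TPM, and in TD against TA 15 and 6, 15 and 9, and 23 and 6. In TA against WT it was 7 higher and 8 lower with library totals, 6 and 9 without the filter, and 6 and 2 with TPM.

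Adaptors and brakes at the receptor held 23 tested genes, of which 4 rose and 4 fell in TD against WT. This was 34.8% called, against 29.2% of all genes tested. Socs3, a cytokine-induced inhibitor that can bind the insulin receptor, rose most, from 19.7 ± 2.66 CPM in WT to 36.1 ± 4.28 in TD (log2 fold change 0.87, adjusted p = 0.000700, edgeR). In TA it was at 19.5 ± 4.90 CPM, and TD was higher than TA by 0.89 (adjusted p = 0.00123). Irs3, an insulin receptor substrate of rodent adipocytes, fell in both mutants. It was at 34.9 ± 4.40 CPM in WT, 25.1 ± 1.45 in TD (−0.47, adjusted p = 0.0116) and 16.3 ± 3.37 in TA (−1.10, adjusted p = 5.44e-05), with no overlap between any 2 genotypes. The call in TD was lost without WT replicate 1 (adjusted p = 0.0518) and with TPM (adjusted p = 0.0934, limma).

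PI3K subunits and phosphoinositide phosphatases held 18 genes, with 1 higher and 1 lower in TD against WT. This was 11.1% called, against 29.2% of all genes tested. Inppl1, a lipid phosphatase that removes the product of PI3K, fell from 131 ± 2.61 to 109 ± 5.84 CPM (−0.26, adjusted p = 0.0174, edgeR), a call lost with library totals (adjusted p = 0.0550) and TPM (adjusted p = 0.497). Its counts are uncertain, since 1204 of its 6399 exon bases are shared with Gm10602 on the other strand. Pik3ip1, a protein that inhibits PI3K, rose in TA (24.4 ± 3.12 CPM against 17.8 ± 1.71, 0.45, adjusted p = 0.0124). In TD it was at 21.6 ± 2.02 CPM, and was not called against WT (0.28, adjusted p = 0.0646, edgeR) or against TA (−0.17, adjusted p = 0.291, edgeR). The regulatory subunit gene Pik3r3 was lower in TD than in TA (14.3 ± 1.33 against 20.4 ± 1.88 CPM, −0.51, adjusted p = 0.00573). Inpp5d, a lipid phosphatase mainly of blood cells, was higher in TD than in TA (9.52 ± 1.82 against 3.49 ± 2.31 CPM, 1.43, adjusted p = 0.0186). Of the 10 macrophage markers 3 were also called higher in TD than in TA, against 7.33% of all genes tested. The median log2 fold change of the 10 was 1.03, and the part of these markers in the difference of Inpp5d was not tested. The call for Inpp5d was lost without TA replicate 1 (adjusted p = 0.0590) and without TD replicate 4 (adjusted p = 0.0517).

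AKT kinases, activators and brakes held 17 genes, of which 2 rose and 3 fell in TD against WT. This was 29.4% called, close to the 29.2% of all genes tested. Trib3, a pseudokinase that binds AKT, fell in TD from 79.9 ± 10.9 to 41.4 ± 7.68 CPM (−0.95, adjusted p = 0.00167). The phosphatase subunit gene Ppp2r1a was lower in TD than in TA by −0.26 (168 ± 5.28 against 200 ± 20.04 CPM, adjusted p = 0.0369), a call kept in 11 of 21 alternatives. It was lost with TPM (adjusted p = 0.295, limma), with library totals (adjusted p = 0.0960), without the filter on low counts (adjusted p = 0.0509), without TA replicates 1 (adjusted p = 0.0910), 2 (0.136) or 4 (0.0770) and without any 1 of the TD libraries (0.0599 to 0.106).

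AKT substrates and effectors held 24 genes, of which 1 rose and 6 fell in TD against WT. This was 29.2% called, the same share as the 29.2% of all genes tested, of which 15.1% were called higher and 14.2% lower. The median of the 24 was −0.16, against 0.01 for all genes tested. Those that fell were Tbc1d4, which governs the traffic of glucose transporters, the kinase Gsk3a, the translation repressors Eif4ebp1 and Eif4ebp2, the phosphodiesterase Pde3b, through which insulin restrains lipolysis, and the cell death gene Bad. With TPM and limma Eif4ebp1 was called lower, and the calls for Gsk3a (adjusted p = 0.0850), Pde3b (0.0790), Eif4ebp2 (0.208), Bad (0.492) and Tbc1d4 (0.874) were lost. Tbc1d4 (−0.22, adjusted p = 0.0466, edgeR) was called in 8 of 21 alternatives and was also lost with library totals (adjusted p = 0.119) and without any 1 of WT replicates 1, 3 and 4 and the 4 TD libraries (0.0562 to 0.119). Bad (−0.27, adjusted p = 0.0399, edgeR) was called in 10 of 21, and was also lost with library totals (adjusted p = 0.113) and without any 1 of WT replicates 1, 2 and 3, TA replicate 1 and TD replicates 2 and 4 (0.0508 to 0.124). The counts of Gsk3a and Bad are uncertain, since Gsk3a shares 820 of its 2900 exon bases with 9130221H12Rik and Bad 524 of its 2558 with Gpr137, both on the other strand. Eif4ebp1 fell most, from 235 ± 28.0 to 159 ± 12.9 CPM (−0.56, adjusted p = 0.00240, edgeR). Foxo3, a transcription factor that AKT keeps out of the nucleus, rose from 120 ± 11.9 to 157 ± 10.4 CPM (0.39, adjusted p = 0.00218). Against TA the same direction was seen for Foxo3 (0.39, adjusted p = 0.00406) and for Pde3b, at 380 ± 39.4 CPM in TD and 535 ± 90.4 in TA (−0.49, adjusted p = 0.00709). None of the 24 was called in TA against WT by edgeR, against 11.1% of all genes tested. Among the 24, 4 had an unadjusted p under 0.05 (edgeR), and DESeq2 called 1 lower.

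In the RAS and MAP kinase branch none of 15 genes was called in TD against WT by edgeR, against 29.2% of all genes tested. Among the 15, 5 had an unadjusted p under 0.05 (edgeR), and DESeq2 called 2 lower. TD against TA called Dusp6, a phosphatase of the MAP kinases, as higher (17.3 ± 2.25 against 11.9 ± 1.60 CPM, 0.53, adjusted p = 0.00600) and the kinase Rps6ka1 as lower (6.79 ± 0.868 against 11.3 ± 1.13 CPM, −0.74, adjusted p = 0.00293). Nras was lower in TA than in WT (−0.20, adjusted p = 0.0484, edgeR). It was called in 5 of 21 alternatives, and in 1 of the 12 that left out a library.

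**Figure D5:**
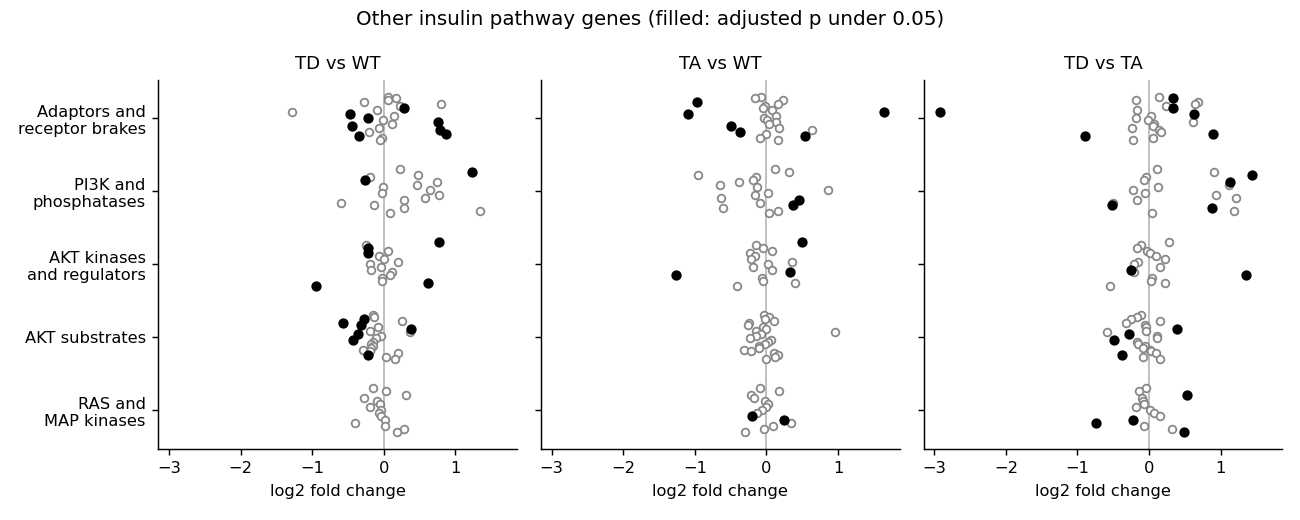
Log2 fold changes of the 97 other pathway genes tested, in 5 groups by role, for TD against WT, TA against WT and TD against TA. Each point is a gene, spread within its group for legibility, and filled points have an adjusted p under 0.05. Among AKT substrates in TD against WT, 6 filled points lie to the left and 1 to the right of 0, and the RAS and MAP kinase group has no filled point there.

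Genes whose log2 CPM followed those of the 9 most closely over the 12 libraries were found by Pearson's r among the 10549 genes that averaged 5 CPM or more. Akt2 was followed by Tkt (r = 0.98), transketolase of the pentose phosphate pathway, and Aacs (r = 0.98), acetoacetyl-CoA synthetase of lipid synthesis. Igf1r was followed by Eno2 (r = 0.97), Insr by Ptpn14 (0.97) and Vps33a (0.94), and Pik3r1 by Bag4 (0.96) and Ube3c (0.95). For Irs2 the values were lower, with Ttc13 (0.91) and Eprs (0.90), as for Grb14, with Cpne2 (0.91) and Ier5l (0.90). The libraries of a genotype share its differences from the other genotypes. These r values include those differences and do not measure how genes vary together within a genotype.

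By position the 9 genes lie on 7 chromosomes of GRCm38 (GENCODE M21), as chr8:3122061-3279617 for Insr, chr7:67952827-68233668 for Igf1r, chr1:82233101-82291416 for Irs1, chr8:10984681-11008458 for Irs2, chr13:101680563-101768217 for Pik3r1, chr3:32397671-32468486 for Pik3ca, chr12:112653821-112674884 for Akt1, chr7:27591552-27640826 for Akt2 and chr2:64912476-65024987 for Grb14. Reads were counted on their exons. Of the 9 genes, Irs1 shares 2822 exon bases with Gm9747, which had no counts, and Irs2 shares 162 with 9530052E02Rik, which had a mean of 1.33 counts, both on the other strand. The sources used here do not say whether reads were counted by strand, and without strand the reads on these bases cannot be told apart.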

How the data were processed

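RNA-seq of cultured adipocytes was analysed for WT, TA and TD, with 4 libraries each. Per the labels, the authors used bcl2fastq 2.17.1.14, cutadapt 1.9.1, HISAT2 2.0.1 and HTSeq 0.6.1 with the genome GRCm38. The deposited values are counts of reads per gene, without normalization, and the strand setting is not given in the sources used here. The 12 libraries were equal in the joint and the single tables, and replicate pairs differed by more than sampling noise (chi-square per degree of freedom 4.95 to 38.7).

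Genes were kept by filterByExpr of edgeR 4.0.16 (minimum count 10, minimum total 15), normalized by TMM (factors 0.957 to 1.04) and fitted by the quasi-likelihood method to all 12 libraries, two-sided, with Benjamini-Hochberg adjustment over 15117 genes and a threshold of 0.05. The steps were tested on simulated counts, with the same spread between libraries for every gene. Of genes changed by a log2 fold change of 0.5 in either direction, 29.9% were called, and of those changed by 1, 91.9%. Of the calls, 4% were false. The simulation changed only 97 and 99 of 15026 genes at these sizes, so the shares recovered need not hold in the comparisons made here. For the 9 genes the 95% intervals of the edgeR fit answer the question more directly. Where one of them was not called, its interval excluded a log2 fold change of 0.5 in either direction. The interval that came nearest was that of Grb14 in TD against WT, which reached 0.46. Other genes that were not called may still differ by a change of this smaller size. CPM are counts scaled to 1000000 per normalized library. TPM used union exon lengths of GENCODE M21, which held 99.7% of the identifiers. Ratios were compared by exact permutation, and 5 pairs in 3 comparisons gave 15 tests. Alternatives were RLE size factors, library totals, upper quartile, DESeq2 1.42.0, no filter, at least 10 counts in every library, the compared genotypes alone, a replicate block and the loss of each library. TPM as log2(TPM + 1) with limma 3.58.1 was added after the data had been seen. R 4.3.3 and Python 3.11.15 were used. Promoter windows came from RefSeq.

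The 9 genes and the gene lists were chosen with earlier results of these data known, so no p is adjusted over a list alone. Other pathway genes are named where they had the largest rise or fall of their group among called genes with at least 5 CPM in the higher genotype. The substrates that fell in TD, Bad among them, were named after their values had been seen. Genes of like pattern are the 2 with the highest r. A few genes meeting these rules are not reported here. Marker lists are given as sums and counts. Depth was 16553324 to 20324286 counts per library, which left Grb14, the lowest of the 9 genes, with at least 151 counts in each library.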

Additional observations from a re-analysis of the deposited data

Results flagged for a closer look

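In 3 of the 27 groups of 4 libraries examined (9 genes in 3 genotypes) 1 library stood apart from the others, with a gap to its neighbour, as a part of the group's range, above Dixon's 95% critical value for 4 samples. Chance alone gives this in about 5% of groups. Irs2 was at 46.4 CPM in TA replicate 3, with a gap of 0.833 of the range, while the other TA libraries reached 57.2 CPM. It was also low in TD replicate 1, at 44.6 CPM, with a gap of 0.834, where the highest TD library had 53.5 CPM. Grb14 was at 19.8 CPM in TD replicate 2, with a gap of 0.850, and the lowest TD library had 13.1 CPM. Without that library the log2 difference of Grb14 between TD and WT was −0.02, in place of 0.13, and between TD and TA it was 0.59, in place of 0.75.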

How the results depend on the processing

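Of the 9 genes, 5 were called in TD against WT, but 3 with library totals and 2 with TPM and limma. Under TPM the gene called in TA against WT was Akt2 and not Grb14. Other pathway genes called in TA against WT numbered 13, but 5 when only these genotypes were fitted and 8 with TPM. Leaving out 1 library at a time gave 2 to 5 of the 9 genes in TD against WT (2 without WT replicate 4 or TD replicate 2, 3 without WT replicate 3 or TD replicates 1, 3 or 4) and 0 to 1 in TA against WT (0 without WT replicates 2 or 3). It gave 14 to 27 other pathway genes in TD against WT, in place of 22 (14 without WT replicate 1 or TD replicate 3), 5 to 12 in TA against WT (5 without WT replicate 1, 6 without TA replicate 1, 8 without TA replicate 2) and, for TD and TA, 13 to 34, in place of 20 (13 without TA replicate 2 or TD replicate 4, 34 without TA replicate 3). DESeq2, RLE size factors, upper quartiles and the stricter filter kept each of these counts within 1.5 times.

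Signs turned only where a gene was not called. With library totals the log2 fold changes in TD against WT were 0.017 for Pik3ca and 0.022 for Akt1, and in TD against TA 0.011 for Akt1. With TPM they were 0.12 for Irs1, 0.14 for Pik3ca and 0.15 for Akt1 in TD against WT, 0.073 for Irs2 and 0.10 for Akt1 in TD against TA, and 0.0043 for Pik3r1 in TA against WT. Without 1 library, values in TA against WT ran from −0.012 to 0.17 for Igf1r, −0.17 to 0.0017 for Irs1, −0.097 to 0.023 for Pik3r1 and −0.027 to 0.063 for Akt1. Those in TD against WT ran from −0.13 to 0.030 for Irs1 and −0.024 to 0.24 for Grb14, and those in TD against TA from −0.021 to 0.081 for Irs1 and −0.023 to 0.066 for Pik3ca. The log2 ratio of Irs1 to Irs2 in TA against WT ran from −0.0034 to 0.17 and that of Pik3r1 to Pik3ca from −0.028 to 0.11.

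Replicate numbers are shared by the genotypes but do not pair the libraries. Deviations of same-numbered libraries correlated between −0.24 and 0.20, and 2 of 12 libraries correlated best with their own number. With the replicate number as a block 4 of the 9 genes were called in TD against WT (Pik3r1 was lost, adjusted p = 0.0564), 1 in TA against WT, and 3 between TD and TA, and 19, 11 and 20 of the other pathway genes. Paired by number, the ratios cannot reach a p below 0.125. Grb14 had the fewest counts of the 9 genes, 151 to 368 per library. The causes of these changes were not tested.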

Other observations

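Within the insulin receptor substrates Irs1, Irs2 and Irs3, Irs3 was the most abundant per exon length in WT, at 47.1% to 58.0% of their sum, and in TD, at 44.7% to 50.6%. In TA it made up 30.0% to 38.3%, and Irs2 was the most abundant there, at 43.1% to 45.5%, against 29.9% to 37.8% in WT and 31.2% to 37.2% in TD. Irs1 had the smallest share in each library, from 12.1% to 24.5%, although its exons overlap those of another gene. These shares were computed after the values of the genes had been seen, were not tested, and were nearly the same with the length of the longest transcript.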
